A study of Caenorhabditis elegans with 2 samples.

Results

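Genes of the unfolded protein response and the secretory pathway were examined for regions bound by the Caenorhabditis elegans homeodomain factor ALR-1, which is known for roles in neuron development. They were xbp-1, ire-1, hsp-4, hsp-3, pek-1, atf-6 and let-607, which are 7 of 19973 annotated protein-coding genes. The 7 genes were selected on earlier results of these same lists, in which xbp-1 and let-607 had strong peaks, so the values below describe them and are not tested. A region was tied to a gene when the nearest protein-coding transcript start was that gene's or when the region's point lay in its gene body. The data were chromatin immunoprecipitation sequencing (ChIP-seq) peak lists from whole L2 larvae of mixed sex of strain OP200. These animals carry unc-119(ed3) III and the integrated transgene wgIs200, which targets alr-1 and gives ALR-1 tagged with eGFP. What drives the transgene is not given in the labels, and the native alr-1 gene was not stated to be removed. There were 2 biological replicates in 1 group, and no other genotype, stage or treatment. In whole animals, the cells in which a region was bound are not known.

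The unfolded protein response senses misfolded protein in the endoplasmic reticulum (ER) through 3 membrane proteins. IRE-1 is a kinase and endoribonuclease that splices xbp-1 mRNA, from which the active bZIP transcription factor XBP-1 is then made. PEK-1 is the worm PERK kinase, which slows translation by phosphorylating eIF2 alpha, and ATF-6 is a membrane-tethered bZIP factor. The genes hsp-3 and hsp-4 encode the worm forms of BiP, the main ER chaperone, and hsp-4 is widely used as a reporter of the response. LET-607 is a bZIP factor related to the mammalian CREB3 family, membrane-bound factors known for control of secretory genes.

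The sequences below show what lay under the points upstream of xbp-1, ire-1 and atf-6, the member genes other than let-607 with the highest-ranked pooled regions. Each is read along the gene's strand from WBcel235, the assembly of ce11, and capitals mark TGACGT, the core of many bZIP sites, on either strand. The xbp-1 stretch runs from 100 bp upstream of the point to the last base before the transcript start (III:4193636-4193808, plus strand). The ire-1 stretch (II:8126340-8126460, minus strand) and the atf-6 stretch (X:12480708-12480828, plus strand) hold 60 bp on each side of the point.
xbp-1: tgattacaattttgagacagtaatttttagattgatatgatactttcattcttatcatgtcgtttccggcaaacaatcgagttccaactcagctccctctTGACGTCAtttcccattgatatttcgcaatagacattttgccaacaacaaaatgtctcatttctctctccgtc
ire-1: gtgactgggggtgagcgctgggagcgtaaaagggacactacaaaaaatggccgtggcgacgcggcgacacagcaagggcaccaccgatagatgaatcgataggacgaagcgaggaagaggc
atf-6: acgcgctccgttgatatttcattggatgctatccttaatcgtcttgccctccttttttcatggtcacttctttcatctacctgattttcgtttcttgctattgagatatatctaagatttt
In the xbp-1 stretch the matches on both strands join into the palindrome TGACGTCA, whose first base is the point of the pooled peak (III:4193736-4193743), 73 bp upstream of the start. The ire-1 and atf-6 stretches hold no match.

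Candidate regions had been called on each replicate and on both together (the pooled list), and an optimal list had been drawn from these by irreproducible discovery rate (IDR), which scores how well ranks repeat between replicates. The pooled list held 12996 regions of 320 bp, the replicate 1 list 5071 of 390 bp, the replicate 2 list 7568 of 304 bp and the IDR list 103. The candidate lists mix peaks with background, and most of their regions are not peaks by the IDR list. Regions were ranked by the signal value of the authors' caller and given as a percentile of their own list, where 100 is the strongest and 0 the weakest. Signals and ranks are not compared in size between lists, which differ in length, and the read depth behind them is unknown.

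All 7 genes had a pooled candidate region, 5 had a region in replicate 1, 5 in replicate 2 and 2 an IDR peak. Of all protein-coding genes, 39% had a pooled region, 20% a replicate 1 region, 25.6% a replicate 2 region and 0.521% an IDR peak, by the same rule. These shares stand for reference only, since the genes were chosen on these lists. The pooled regions tied to the 7 genes numbered 16, with 6 at let-607, 3 at ire-1, 2 each at xbp-1 and hsp-4, and 1 each at atf-6, pek-1 and hsp-3. A region in both replicate lists was found for 4 genes, xbp-1, ire-1, hsp-4 and let-607, against 11.5% of all genes. The median percentile of a gene's strongest pooled region was 83.7 over the 7 genes and 59.6 over the 7780 genes with any region.

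**Figure D1:**
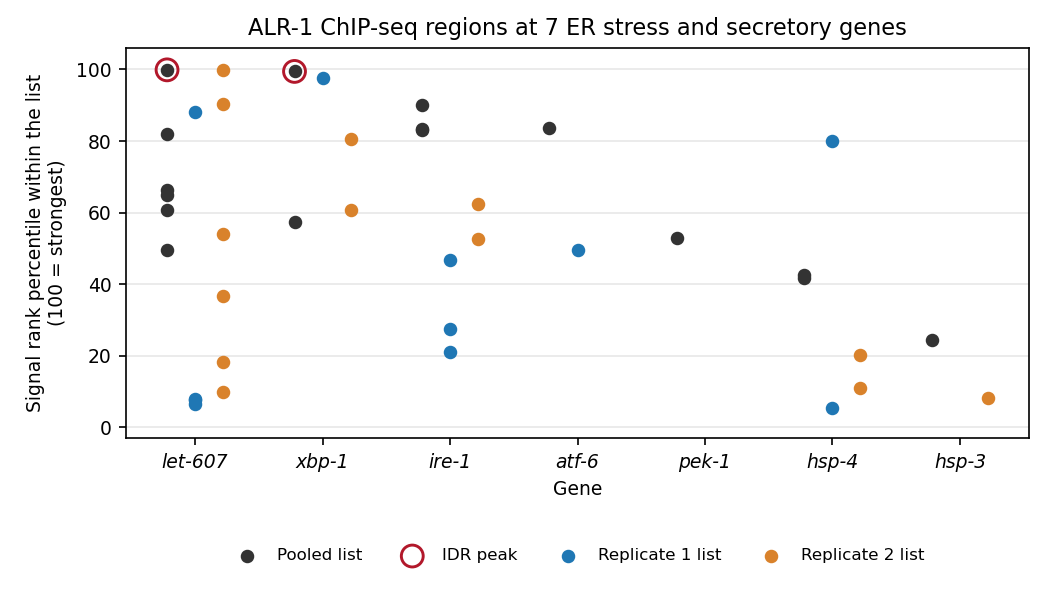
Signal rank percentile within its list (100 = strongest) of every region tied to each of the 7 genes, with pooled, replicate 1 and replicate 2 lists side by side and IDR peaks ringed. The IDR peaks of let-607 and xbp-1 stand above percentile 99 of the pooled list, while pek-1 has 1 pooled region and none in a replicate list.

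The strongest region of the group lay inside let-607 (I:6574004-6585510, plus strand, 11507 bp). The annotation gives let-607 a pair of transcript starts 6018 bp apart. The IDR peak at I:6579762-6580081 had its point 100 bp upstream of the downstream start, in an intron of the longer transcript and 5918 bp from the upstream start. It ranked 15 in the pooled list with a signal of 31.2. In replicate 2 the overlapping region ranked 8 (signal 25.6, percentile 99.9), and in replicate 1 it ranked 601 (signal 5.30, percentile 88.2). The points lay 2 and 7 bp from the pooled point, so both replicates placed the region at the downstream start.

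The other 5 pooled regions of let-607 were weaker and lay in introns, at percentiles from 49.6 to 82.0. The highest of them (I:6582652-6582971, rank 2343) was 2790 bp downstream of the second let-607 start and nearer to try-6, a neighbouring gene whose start was 2227 bp away. It had a replicate 2 region of rank 737 with the same point and none in replicate 1. The regions near the upstream start of let-607 ranked low. Its pooled regions 237 and 980 bp downstream ranked 4563 and 6556. A replicate 1 region 1161 bp upstream ranked 4738 of 5071 and had no pooled counterpart. With 6 pooled regions, let-607 was among the 1.35% of genes that had at least 6, and the median over genes with any region was 1. Long genes can hold more regions, and the part of gene length in this count was not tested.

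In the IRE-1 branch, xbp-1 (III:4193809-4195358, plus strand, 1550 bp) had an IDR peak in its promoter. The peak at III:4193576-4193895 had its point 73 bp upstream of the start, in the 379 bp between xbp-1 and its upstream neighbour dnj-16, a gene of the same strand. It ranked 72 in the pooled list with a signal of 22.9. In replicate 1 the overlapping region ranked 123 (signal 8.37, percentile 97.6) and its point was 41 bp away. In replicate 2 it ranked 1479 (signal 5.88, percentile 80.5) and its point was 1 bp away.

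A second pooled region of xbp-1 had its point in the 3′ UTR (III:4195190-4195509, rank 5554, signal 4.40). It overlapped a replicate 2 region of rank 2975, whose point was 141 bp away and beyond the gene's end, and no replicate 1 region. The promoter peak and this region are the regions tied to xbp-1, and only the promoter peak was present in both replicates.

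**Figure D2:**
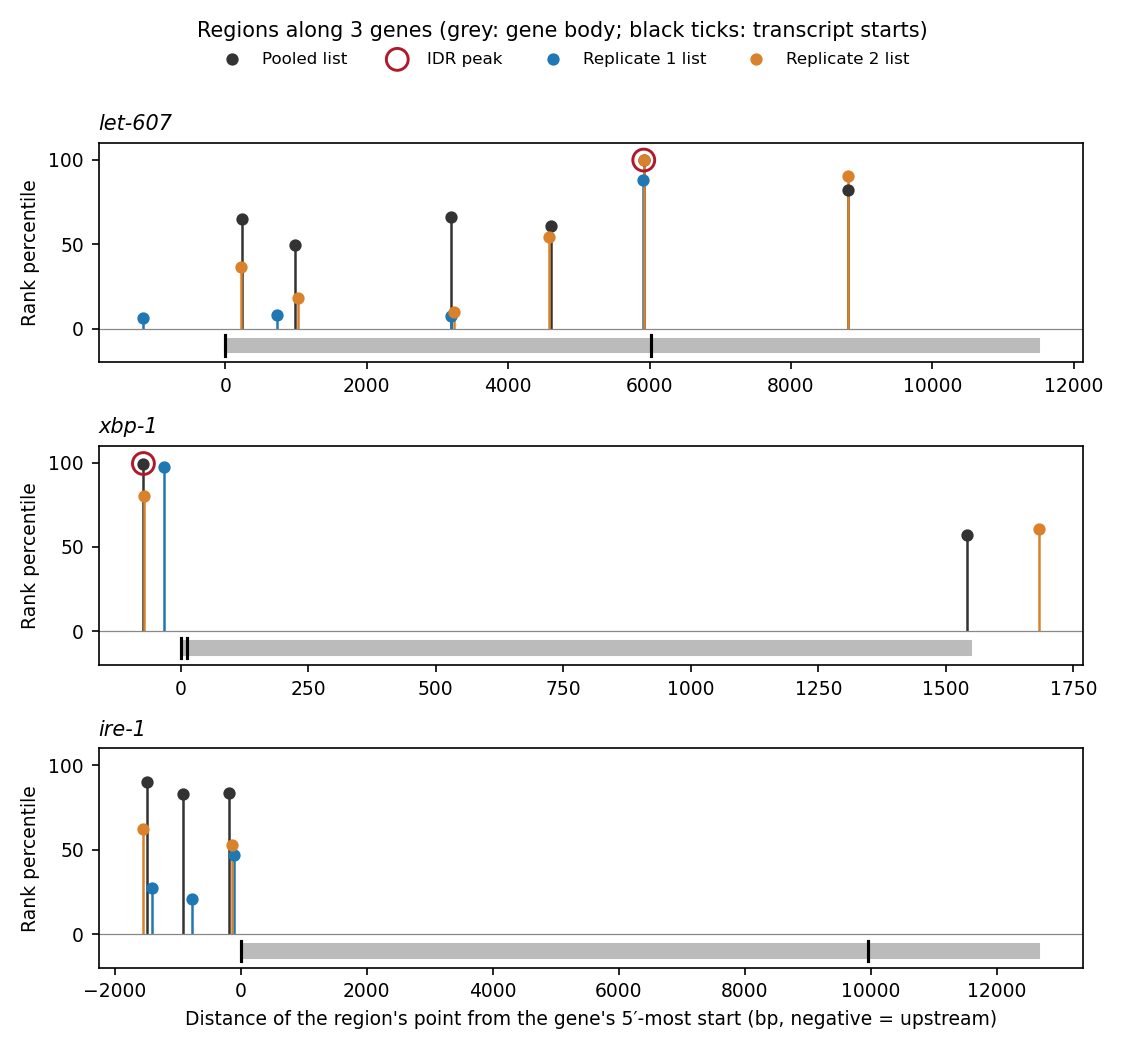
Regions along let-607, xbp-1 and ire-1, with the distance of each region's point from the gene's 5′-most start (bp) on the horizontal axis and its rank percentile on the vertical axis, in colours for the 3 lists. The let-607 IDR peak stands at the second start, 5918 bp into the gene, the xbp-1 IDR peak 73 bp before its start, and all 3 pooled ire-1 regions lie upstream.

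The sensor gene ire-1 (II:8112243-8124910, minus strand, 12668 bp) had no IDR peak. Its 3 pooled regions all lay upstream of the outer start, in the 5049 bp that separate it from the divergent neighbour ulp-4. The strongest was 1490 bp upstream (II:8126240-8126559, rank 1306, signal 9.49, percentile 89.96). It overlapped a replicate 1 region of rank 3679 (signal 2.54, percentile 27.5) and a replicate 2 region of rank 2853 (signal 4.16, percentile 62.3). The region nearest to the start was 179 bp upstream (II:8124929-8125248, rank 2153, signal 7.49). It overlapped a replicate 1 region of rank 2698 and a replicate 2 region of rank 3581. The third, 913 bp upstream (II:8125663-8125982, rank 2190, signal 7.44), overlapped a replicate 1 region of rank 4007 and none in replicate 2. Of all genes, 6.9% had at least 3 pooled regions. None of the 3 lay near the inner start of ire-1, which is 9965 bp inside the gene.

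The BiP genes, which are the chaperone output of the response, had weak regions. For hsp-4 (II:7350112-7352645, minus strand), the pooled promoter region 503 bp upstream ranked 7570 (II:7352988-7353307, signal 3.65) and 4798 of 5071 in replicate 1. The slightly stronger pooled region (II:7348838-7349157, rank 7483, signal 3.68) lay past the gene's 3′ end, with its point in the 3′ UTR of the neighbour nhr-21. Its replicate 1 region ranked 1020, at percentile 79.9, the highest value of hsp-4 in any list. The 2 hsp-4 regions of replicate 2, of ranks 6036 and 6742, lay elsewhere, 322 bp inside the gene and beyond its 3′ end. So hsp-4 had regions in both replicate lists but none that overlapped. For hsp-3 (X:6089028-6092124, minus strand), the pooled region at X:6091479-6091798 ranked 9815 (signal 2.99), with its point in a coding exon. The point lay 485 bp inside the gene and 146 bp downstream of an inner start. A replicate 2 region there ranked 6958 of 7568, and replicate 1 had none.

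The ATF-6 and PEK-1 branches differed in position. For atf-6 (X:12480948-12484904, plus strand), the pooled region lay in the promoter, 180 bp upstream (X:12480608-12480927, rank 2121, signal 7.54, percentile 83.7). It overlapped a replicate 1 region of rank 2557 (signal 2.94, percentile 49.6) and none in replicate 2. For pek-1 (X:11410176-11414887, minus strand), the pooled region lay in an intron 2287 bp inside the gene (X:11412440-11412759, rank 6130, signal 3.99, percentile 52.8). No region of either replicate list overlapped it, and the 1765 bp between the pek-1 start and the upstream gene F46C3.2 held no region tied to pek-1.

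By their strongest pooled region the genes fell in the order let-607, xbp-1, ire-1, atf-6, pek-1, hsp-4 and hsp-3. In replicate 1 the order was xbp-1, let-607, hsp-4, atf-6 and ire-1, and in replicate 2 it was let-607, xbp-1, ire-1, hsp-4 and hsp-3. Only the leading pair, xbp-1 and let-607, was the same in all 3 lists, in either order. The rest of the order changed between replicates.

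**Figure D3:**
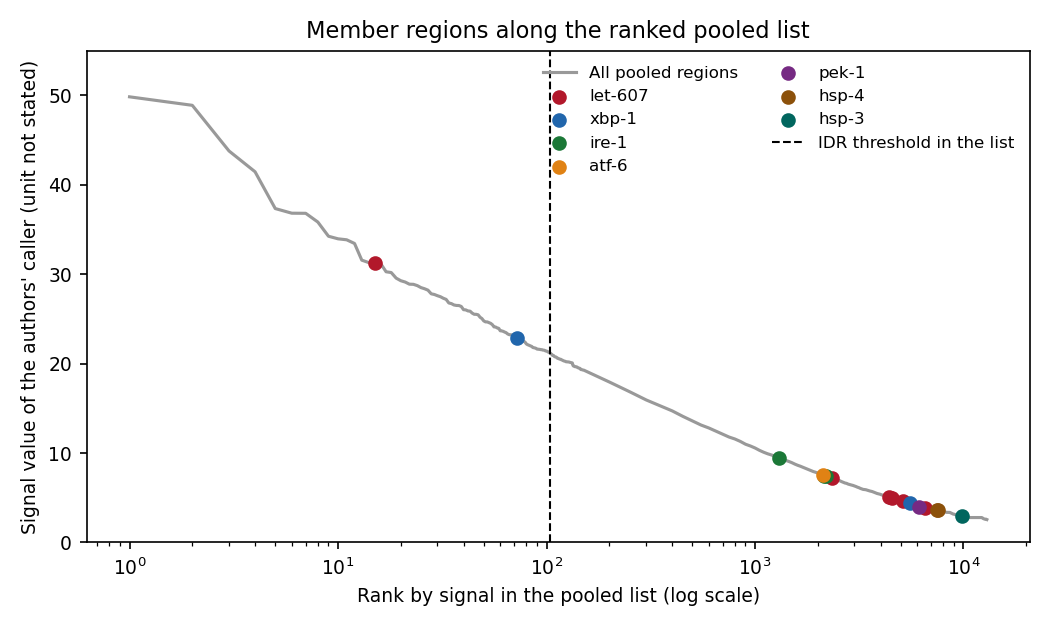
Signal value of the authors' caller (unit not stated) against rank in the pooled list (log scale), with all pooled regions as a grey line, the 16 regions of the 7 genes as points and the IDR threshold as a dashed line. The regions of let-607 and xbp-1 at ranks 15 and 72 lie left of the threshold, and the next region, at ire-1, has rank 1306.

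The IDR threshold fell between rank 103 (plrg-1, signal 21.3) and rank 104 (cmt-1, signal 21.2) of the pooled list. Between the xbp-1 peak at rank 72 and the ire-1 region at rank 1306 no region was tied to any of the 7 genes. The −log10 q-value was at the list's ceiling of 2.90 for the IDR peaks of let-607 and xbp-1, a value shared by 402 pooled regions. It was 1.95 at the strongest ire-1 region and 1.37 at atf-6. The value was far lower at pek-1 (0.399), at the hsp-4 regions (0.341 and 0.150) and at hsp-3 (0.157). At the second xbp-1 region it was 0.498, and at the other let-607 regions it ran from 0.354 to 1.27. For pek-1, hsp-4 and hsp-3 the pooled candidate regions thus had low values only.

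The IDR peaks of xbp-1 and let-607 were then placed among the other IDR peaks within each replicate list. Among the 87 IDR peaks with a replicate 1 region, xbp-1 stood at place 42 and let-607 at place 65. Among the 100 with a replicate 2 region, let-607 stood at place 8 and xbp-1 at place 92. The let-607 region was among the 103 strongest regions of replicate 2 and not of replicate 1. The xbp-1 region was among those of neither. Within replicate 1 the xbp-1 region was thus the stronger of the pair, and within replicate 2 the let-607 region was. IDR peaks are the strongest pooled regions, and a choice on pooled signal favours regions that are strong in at least 1 replicate.

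**Figure D4:**
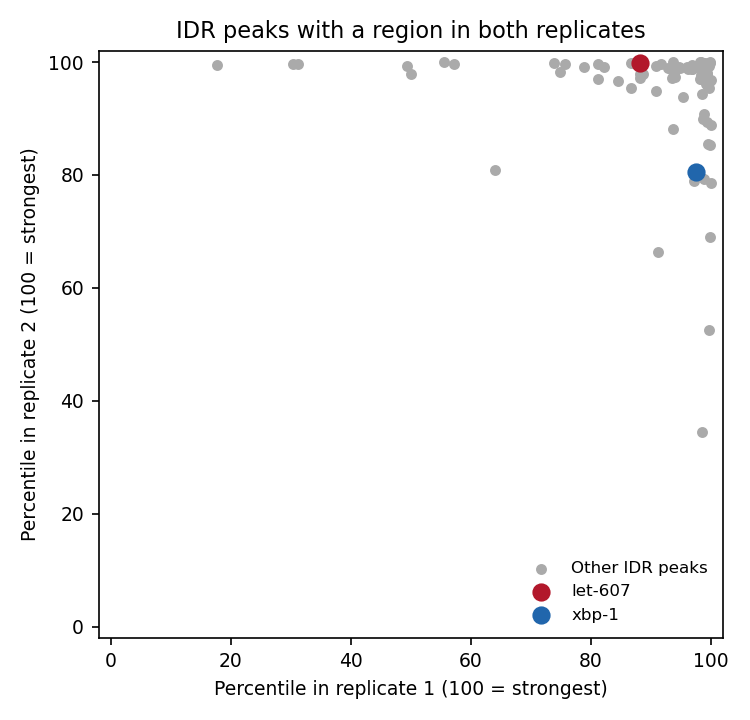
Percentile in replicate 1 against percentile in replicate 2 for the 84 IDR peaks with a region in both lists, each percentile taken within its own list, with let-607 and xbp-1 coloured. The let-607 peak lies at 88.2 in replicate 1 and 99.9 in replicate 2, and the xbp-1 peak at 97.6 and 80.5.

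Likeness to other genes was measured as the Euclidean distance between the 3 percentiles (pooled, replicate 1, replicate 2) of each gene's strongest IDR peak, over 2 samples and their pooled list. The closest to let-607 were hmg-1.2, which encodes an HMG-box chromatin protein, at 0.660 percentage points, bag-1, a gene for a co-chaperone of Hsp70, at 1.45, and Y111B2A.12 at 2.05. The bag-1 peak ranked 59 in the pooled list, 672 in replicate 1 and 19 in replicate 2. The closest to xbp-1 were mrpl-51, for a mitochondrial ribosomal protein, at 1.58, Y62E10A.23 at 1.64 and C30E1.4 at 3.04. The mrpl-51 peak ranked 74 in the pooled list, 144 in replicate 1 and 1594 in replicate 2.

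Over the 16 pooled regions, 6 overlapped a region in both replicates, 4 in replicate 1 alone, 5 in replicate 2 alone and 1 in neither. Of all pooled regions, 13.3% overlapped a region in both. Since the pooled list was called on both replicates together, part of this overlap is built in. Between the replicate lists themselves, 6 of the 11 replicate 1 regions of the 7 genes overlapped a replicate 2 region, where 32.5% of all replicate 1 regions did. Those 6 were 3 at let-607, 2 at ire-1 and 1 at xbp-1. Points lay in an intron for 7 of the 16, in intergenic sequence for 6, in a 3′ UTR for 2 and in a coding exon for 1. The promoter of the gene itself, taken as 1000 bp before a start and 200 bp after it, held 7 of them, and 40.3% of all pooled regions lay in some gene's promoter. Those 7 were 2 at ire-1 and 1 each at let-607, xbp-1, atf-6, hsp-4 and hsp-3, which leaves pek-1 as the gene with none. The hsp-3 region counted here lay inside the gene, in a coding exon downstream of an inner start.

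GC content within 100 bp of the point ranged from 28.9% at pek-1 to 51.2% at the hsp-4 promoter region, with a median of 40.0% over the 16. It was 43.8% at the let-607 peak, 39.8% at the xbp-1 peak and 50.7% at the strongest ire-1 region. The mean was 38.4% ± 6.59 (SD across regions) over all pooled regions and 43.96% ± 5.89 over the 103 IDR peaks. Both IDR peaks of the group were thus within 1 SD of either mean.

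TAATTA, a core bound by many homeodomain proteins, was searched within 100 bp of each point. It was found at 1 of the 16 regions, the intronic one of pek-1, and at 7.97% of all pooled regions. The peaks of let-607 and xbp-1 had no match in that window. TGACGT or its reverse complement ACGTCA was found at 2 regions, the xbp-1 peak and the let-607 region of rank 4563, and at 8.09% of all pooled regions. ACGTG or CACGT was found at 3 regions, the xbp-1 peak, the let-607 region of rank 4382 and the hsp-3 region, and at 20.2% of all. At xbp-1 that match was not in the printed stretch and touched the bases from the transcript start on. The palindrome TGACGTCA holds TGACGT on both strands and was added after the xbp-1 sequence had been seen. It occurred within 100 bp of the point at 155 pooled regions (1.19%), and among the 103 IDR peaks at 1 (0.971%), which was that of xbp-1. Its first base lay within 10 bp of the point at 20 of those 155 pooled regions. A match describes the letters in a window and does not show that any factor bound there.

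Genes of ER stress and secretion, other stress genes and other bZIP factor genes were taken from lists put together with the earlier results of these data known. The 8 lists gave 105 genes, of which 3 had an IDR peak (2.86%) and 81 a pooled region (77.1%), beside the 0.521% and 39% of all genes. The lists hold all 7 members, 13 cytosolic and mitochondrial stress genes and 23 other bZIP factor genes, so these shares are not those of ER genes. In the lists of ER stress and secretion, let-607 and xbp-1 were the only genes with an IDR peak. The third gene with an IDR peak was fos-1, a bZIP factor gene of the AP-1 family, from the other bZIP list. Its strongest peak ranked 46 in the pooled list (V:6000472-6000791, signal 25.5), 98 in replicate 1 and 72 in replicate 2, at 2969 bp upstream of a start.

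The 8 sensors and factors, with the members let-607, xbp-1, ire-1, atf-6 and pek-1 among them, all had a pooled region. The median percentile of the strongest was 85.9. Besides the members, atf-4, the effector of the PEK-1 branch, had a promoter region of rank 1543, present in both replicates at ranks 2236 and 3870. It lay 213 bp upstream of the start. All 14 genes listed as ER chaperones and folding enzymes had a pooled region and none had an IDR peak. The list does not hold every such gene. An IDR peak was nearest to uggt-1, an ER gene outside the list. Its percentile was 99.6 in the pooled list and 99.7 in replicate 2, with no overlapping replicate 1 region. The median percentile of the 14 listed genes was 64.8. The strongest of the list was at crt-1, which encodes the ER chaperone calreticulin, 232 bp upstream at rank 157 (signal 19.1, ranks 610 and 1706 in replicates 1 and 2). Within that list hsp-4 and hsp-3, at percentiles 42.4 and 24.5, were below the median. Of 12 ER-associated degradation genes 9 had a pooled region, with a median percentile of 52.9, led by cdc-48.1, a p97 ATPase gene, at rank 426.

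Of 12 translocon, signal recognition and signal peptidase genes 5 had a pooled region (41.7%), near the 39% of all genes. In the replicate lists 3 of the 12 had a replicate 1 region and 8 a replicate 2 region, beside 20% and 25.6% of all genes. The median pooled percentile of the 5 was 91.2, the highest of the 8 lists. The strongest was at trap-1, a gene for a translocon-associated protein, at rank 112 (signal 20.7), just below the IDR threshold. Its replicate ranks were 1311 and 48. Of 18 COPII and COPI transport genes 13 had a pooled region, with a median percentile of 60.3. The strongest was at unc-108, a Rab2 gene, at rank 186, with ranks of 247 and 208 in the replicates. Of 5 translation control genes 2 had a pooled region (40%), also near the share of all genes. Their median percentile was 73.9, and the stronger was at eif-2gamma at rank 3253.

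Cytosolic and mitochondrial stress genes were listed for comparison with the ER genes. Of 13 such genes 11 had a pooled region and none an IDR peak, with a median percentile of 84.3. The strongest, at rank 111, was at hsp-90 (signal 20.7, ranks 96 and 415 in the replicates), a cytosolic chaperone gene. This list does not hold every such gene either. IDR peaks were nearest to cct-5, dnj-13 and bag-1, chaperone or co-chaperone genes outside the list. Of 23 other bZIP factor genes 19 had a pooled region, with a median percentile of 79.2, and 1 had an IDR peak. Their range was wide, from percentile 2.06 at atf-8 to 99.7 at fos-1. Regions were thus found in every list, at 40% to 100% of the matched genes, where 39% of all genes had one. Of the members only let-607, at percentile 99.9, lay outside the range of the other list genes, with fos-1 above xbp-1.

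**Figure D5:**
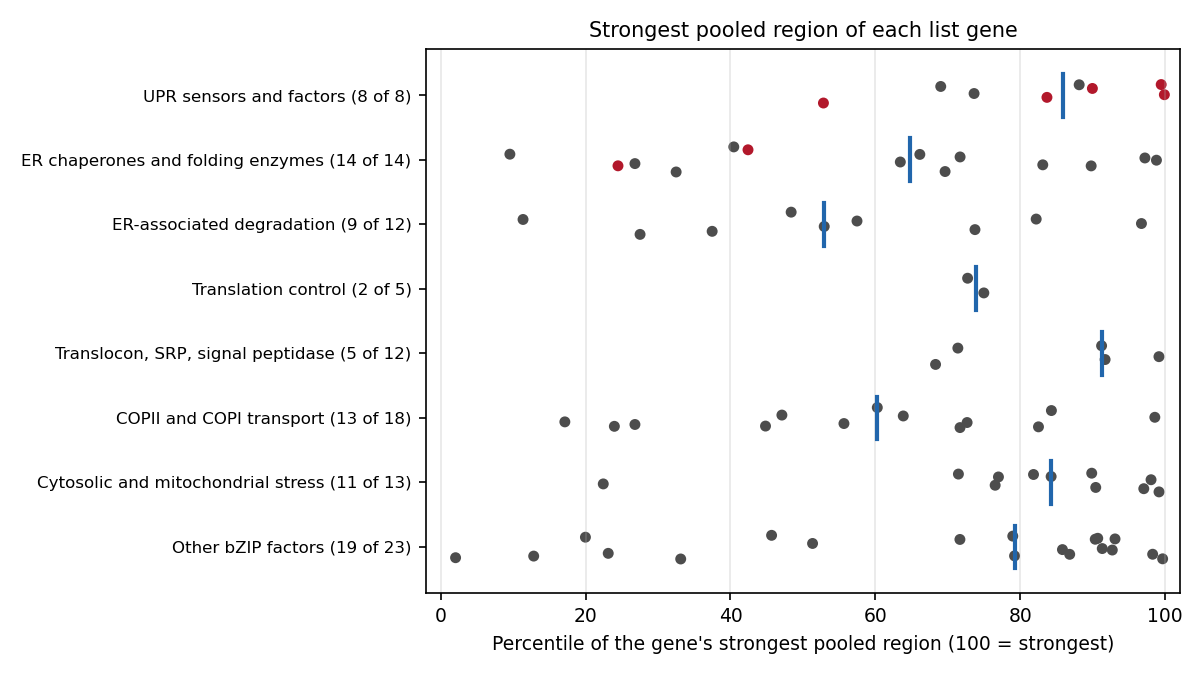
Percentile of the strongest pooled region of each gene in the 8 lists (100 = strongest), with the 7 member genes in red, the median of each list as a blue bar and, in brackets, the genes with a region of those matched. All 8 sensors and factors and all 14 ER chaperones have a region, with medians of 85.9 and 64.8, and hsp-4 and hsp-3 lie low among the chaperones.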

How the data were processed

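ChIP-seq was done against eGFP-tagged ALR-1 in 2 biological replicates of whole L2 larvae. Per the deposited file notes, the authors called candidate regions against a control on each replicate and on both together, and derived the IDR list from these. No label or note used here names the aligner, the caller or the IDR threshold. The deposited values are a signal of unstated scale and, by the file format, a −log10 q-value. Lists on ce11 were used. Those on ce10 were not used here.

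Ensembl release 115 gave 19973 protein-coding genes on 6 nuclear chromosomes, and RefSeq's WBcel235 gave the sequence. Overlap meant at least 1 bp. Of several overlapping regions, the strongest was taken. No test was run, since there was 1 group. Python 3.11.15, numpy 2.4.6, pandas 2.3.3 and matplotlib 3.10.9 were used, and the code was tested on simulated regions. The members and gene lists were chosen with earlier results of these data known. From each list, genes with an IDR peak were named, or otherwise the gene with the strongest pooled region. Other list genes, uggt-1, cct-5, dnj-13 and nhr-21 were named after their values were seen. Of the list symbols, 8 did not match the annotation.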

Additional observations from a re-analysis of the deposited data

How the results depend on the processing

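Of 48 alternative values, 34 stayed within 1.5 times the count or within the replicate spread, and 14 did not. For percentiles that spread comes from the same replicate values, so it is a weak yardstick where they lie far apart. The number of the 7 genes with an IDR peak (2) was the same under all 4 other rules for tying regions to genes. It was 1 (let-607) in the stronger 51 of the IDR peaks. Among the 103 strongest regions of a replicate alone, a setting chosen after seeing the data, it ranged from 0 without replicate 2 to 1 without replicate 1. The number of pooled regions in a member's promoter (7) was 4 when promoters were cut to 500 bp before and 100 bp after a start. Motif counts rest on few regions. TAATTA (1) was 0 with 50 bp and 2 with 250 bp on each side, TGACGT (2) was 1 with 50 bp, and ACGTG (3) was 8 with 250 bp. In replicate 2 alone the percentile of the strongest region was 80.5 for xbp-1, 62.3 for ire-1, 20.2 for hsp-4 and 8.06 for hsp-3, against 99.5, 89.96, 42.4 and 24.5 in the pooled list. In replicate 1 alone it was 88.2 for let-607, 46.8 for ire-1, 79.9 for hsp-4 and 49.6 for atf-6, against 99.9, 89.96, 42.4 and 83.7. Each value is for the gene's strongest region of that list. For ire-1 in replicate 1 and hsp-4 in replicate 2 this was another region than in the pooled list. The replicate 1 region that overlapped the strongest pooled ire-1 region was at percentile 27.5. The lists differ in length. The cause was not tested. No paired analysis was possible because the 2 samples form a group with no contrast. Read depth is unknown, so no precision was derived from it.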
